A study of Rattus norvegicus with 4 samples.

Results

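The channel that carries new secretory and membrane proteins into the endoplasmic reticulum (ER), and the proteins that help to open it or trim its substrates, were measured here through 10 genes: Sec61a1, Sec61b, Sec61g, Sec62, Sec63, Ssr1, Ssr2, Ssr3, Spcs2 and Serp1. The genes were fixed by name, with earlier results of these data known, so no test was run over the list. Every probe set that the array's gene table pairs with one of these names, current or older, was taken. This gave 20 of the 31042 probe sets tested. All 10 genes were measured, 6 of them by more than 1 probe set and 4 by a single probe set. Cells were neonatal rat cardiomyocytes, the muscle cells of the heart, from Sprague-Dawley rats aged 1 to 2 days. They were infected for 24 hours in serum-free medium with an adenovirus that makes GFP alone (Ad-GFP, the control) or with one that makes atrogin-1 together with GFP (Ad-atrogin-1). Every sample thus carried an adenovirus and GFP, there was no uninfected group, and expression from a virus does not depend on the cells' own Fbxo32 gene, which encodes atrogin-1. Each group had 2 arrays, called biological replicates by the labels, and nothing says which animals or cultures gave them, so p-values measure the spread between these samples.

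Most proteins that are secreted or sit in a membrane are threaded into the ER while they are being made. A signal peptide at the start of the protein is bound by the signal recognition particle, which brings the ribosome to the Sec61 channel, a complex of an alpha, a beta and a gamma subunit. Sec62 and Sec63 serve proteins that enter after or late in their synthesis, the TRAP complex (the Ssr subunits) helps some signal peptides to open the channel, Serp1 (RAMP4) binds to the channel and its nascent chains, and signal peptidase, to which Spcs2 belongs, cuts the signal peptide off. Genes of this machinery are known targets of the unfolded protein response, which enlarges the ER's capacity when proteins fail to fold.

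Values are log2 signals per probe set, made by robust multi-array average (RMA), and a difference of 1 is a 2-fold change. The array medians lay between 5.51 and 5.52 and the lower quartiles between 3.88 and 3.94. Fbxo32 had log2 signals of 5.24 and 5.04 on the Ad-GFP arrays and 13.55 and 13.47 on the Ad-atrogin-1 arrays, as labelled (adjusted p = 7.67e-05, limma). Of 12 listed cardiomyocyte marker genes 11 were measured, all with a mean log2 signal of at least 8.65, and Tnnt2, the cardiac troponin T gene, reached 12.81 to 13.05. Fibroblast collagen genes were bright as well, Col1a2 at 10.92 to 11.43, so that the cultures held RNA of other cells, and with whole cultures fewer cells of a type cannot be told apart from less RNA per cell.

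All 10 genes had higher log2 signals with Ad-atrogin-1 on either array than on any Ad-GFP array at their brightest probe set, and none passed the test. The median log2 fold change of the 10 genes was 0.79, with a range of 0.25 to 0.93, where the median of all 14217 genes was 0.00. At the level of probe sets, 19 of 20 lay higher in Ad-atrogin-1 with no overlap of the groups, against 18.3% of all probe sets, and 1 lay lower, against 22.1%. No member probe set was called higher or lower by limma, where a call needed a change of at least 2-fold and an adjusted p under 0.05, against 0.248% of all probe sets called higher and 0.0258% called lower. Without the fold threshold the count of members was also 0, and the shares of all probe sets were the same 0.248% and 0.0258%, because each probe set with such an adjusted p also changed by at least 2-fold. At an unadjusted p under 0.05, 17 of the 20 member probe sets were higher, against 5.6% of all probe sets, and 0 were lower, against 5.61%. The mean over the 10 genes was 9.48 and 9.53 on the Ad-GFP arrays and 10.16 and 10.22 on the Ad-atrogin-1 arrays. Adjusted p of the member probe sets ran from 0.0558 to 0.881. With 2 arrays a group, an exact permutation test of 1 value cannot go below a two-sided p of 0.333.

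**Figure D1:**
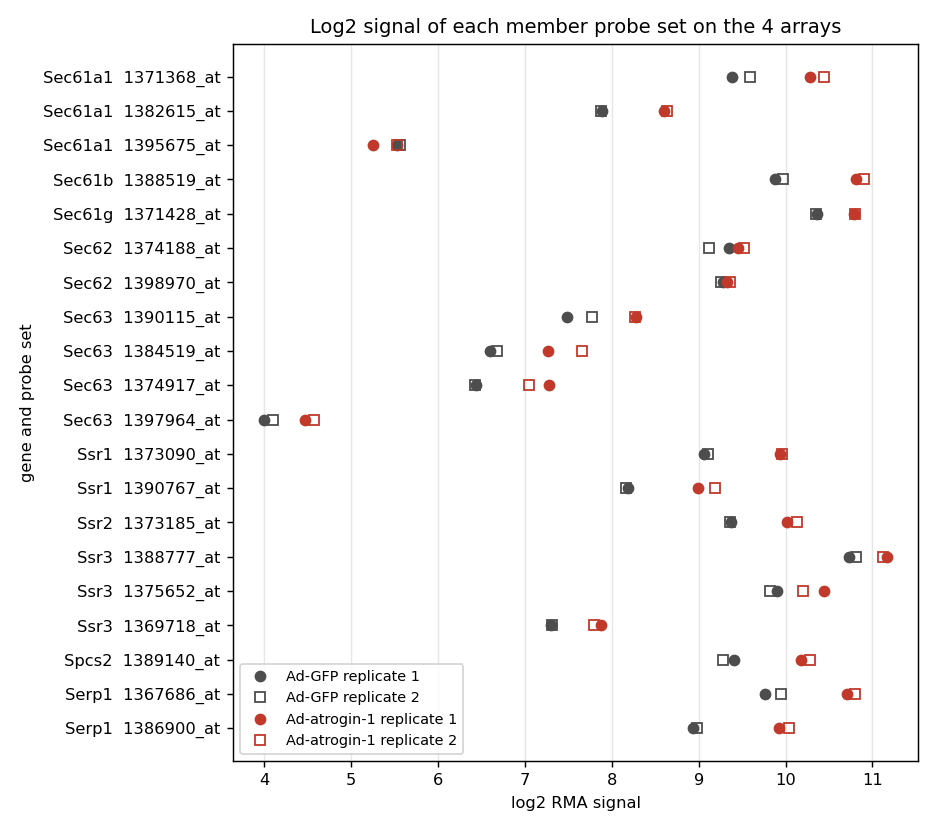
Log2 RMA signal (horizontal axis) of each of the 20 member probe sets (rows, by gene) on the 4 arrays, with Ad-GFP in grey, Ad-atrogin-1 in red, filled circles for replicate 1 and open squares for replicate 2. The red symbols lie to the right of the grey ones in 19 rows, and the dim Sec61a1 probe set 1395675_at is the exception.

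The Sec61 channel itself showed unequal differences between its subunits. Sec61b, which encodes the beta subunit, had log2 signals of 9.88 and 9.97 on the Ad-GFP arrays and 10.81 and 10.90 on the Ad-atrogin-1 arrays. The groups were far apart for their spread, and the log2 fold change was 0.93 (standard error, SE, 0.12; 95% interval 0.64 to 1.22), a ratio of 1.91-fold, with an adjusted p of 0.0666 from limma. Sec61a1, the gene of the alpha subunit that forms the pore, had log2 signals of 9.38 and 9.59 in Ad-GFP and 10.29 and 10.45 in Ad-atrogin-1 at its brightest probe set, 1371368_at. Its log2 fold change there was 0.88 (SE 0.14, adjusted p = 0.0976, limma). A dimmer Sec61a1 probe set, 1382615_at, had 7.89 and 7.87 in Ad-GFP and 8.59 and 8.63 in Ad-atrogin-1, a log2 fold change of 0.73 (SE 0.11), so this pair of probe sets differed in the same direction.

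The remaining Sec61a1 probe set, 1395675_at, went the other way. Its log2 signals of 5.53 and 5.56 in Ad-GFP and 5.25 and 5.52 in Ad-atrogin-1 lay near the median of the arrays, and the log2 fold change was -0.16 (95% interval -0.50 to 0.19, adjusted p = 0.761, limma). The nearest arrays of the groups nearly touched there, and which part of the transcript each probe set reads was not used here. Sec61g, the gene of the gamma subunit, had 10.36 and 10.35 in Ad-GFP and 10.79 and 10.80 in Ad-atrogin-1. The arrays of each group nearly coincided, yet the difference was smaller than for the other subunits, with a log2 fold change of 0.44 (SE 0.11, 95% interval 0.16 to 0.72, adjusted p = 0.25, limma).

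The ratio of Sec61b to Sec61g within an array, as a difference of log2 signals, was -0.47 and -0.38 on the Ad-GFP arrays and 0.03 and 0.10 on the Ad-atrogin-1 arrays. It was higher on both Ad-atrogin-1 arrays by 0.49 on average, which is an unequal change of the 2 genes. This and the 2 ratios given later were chosen after the values had been seen, and the differences between members were not tested.

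Sec62 and Sec63, partners in the route for proteins that enter after synthesis, differed from each other in the same way. Sec62, a membrane protein that joins Sec63 at the channel, had log2 signals of 9.35 and 9.12 in Ad-GFP and 9.45 and 9.52 in Ad-atrogin-1 at its brightest probe set. The Ad-GFP arrays were farther from each other than replicate 1 of Ad-GFP was from replicate 1 of Ad-atrogin-1, and the log2 fold change was 0.25 (95% interval -0.08 to 0.59, adjusted p = 0.564, limma), the smallest of the 10 genes. The other Sec62 probe set, 1398970_at, had 9.28 and 9.26 in Ad-GFP and 9.32 and 9.36 in Ad-atrogin-1, a log2 fold change of 0.08 (95% interval -0.20 to 0.35).

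Sec63, whose protein has a J-domain that recruits the ER chaperone BiP to the channel, was measured by 4 probe sets, and each was higher in Ad-atrogin-1 with no overlap. At the brightest, 1390115_at, log2 signals were 7.48 and 7.77 in Ad-GFP and 8.28 and 8.26 in Ad-atrogin-1, a log2 fold change of 0.64 (SE 0.14, adjusted p = 0.193, limma). The log2 fold changes of the others were 0.82 at 1384519_at, 0.74 at 1374917_at and 0.47 at 1397964_at, with SE of 0.12 to 0.16. The last of these had log2 signals of 4.00 to 4.57, close to the lower quartile of the arrays, where no background level was estimated and the size of a change is not exact. The ratio of Sec63 to Sec62 within an array was -1.87 and -1.34 on the log2 scale in Ad-GFP and -1.17 and -1.26 in Ad-atrogin-1. The ratio was higher by 0.39 on average, but the Ad-GFP arrays differed from each other by more than that.

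The TRAP genes were all higher in Ad-atrogin-1, Ssr1 and Ssr2 by more than Ssr3. Ssr1, which encodes the alpha subunit, had log2 signals of 9.06 and 9.10 in Ad-GFP and 9.94 and 9.96 in Ad-atrogin-1, a log2 fold change of 0.87 (SE 0.11, adjusted p = 0.0704, limma). A further Ssr1 probe set, 1390767_at, gave nearly the same log2 fold change, 0.91 (SE 0.13, adjusted p = 0.0782, limma), from signals of 8.19 and 8.17 against 8.99 and 9.19. For Ssr2, the gene of the beta subunit, log2 signals were 9.37 and 9.36 in Ad-GFP and 10.02 and 10.13 in Ad-atrogin-1, and the log2 fold change was 0.71 (SE 0.12, adjusted p = 0.111, limma).

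Ssr3, which encodes the gamma subunit, had 3 probe sets with log2 fold changes of 0.37, 0.46 and 0.53, larger where the signal was dimmer. At the brightest, 1388777_at, signals were 10.73 and 10.82 in Ad-GFP and 11.17 and 11.13 in Ad-atrogin-1, and the 95% interval of the log2 fold change was 0.09 to 0.66 (adjusted p = 0.326, limma). At 1375652_at the Ad-atrogin-1 arrays were at 10.44 and 10.20 and the Ad-GFP arrays at 9.90 and 9.82, so that replicates of Ad-atrogin-1 differed by more than those of Ad-GFP. At 1369718_at signals were 7.30 and 7.31 against 7.88 and 7.80. The log2 ratio of Ssr1 to Ssr3 within an array was -1.67 and -1.71 in Ad-GFP and -1.23 and -1.16 in Ad-atrogin-1, higher by 0.50 on average.

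Spcs2 and Serp1 act on the chain as it passes the channel. Spcs2, a subunit of signal peptidase that does not itself cut, had log2 signals of 9.41 and 9.28 in Ad-GFP and 10.18 and 10.28 in Ad-atrogin-1, with a log2 fold change of 0.88 (SE 0.12, adjusted p = 0.0779, limma). Serp1, the gene of a small membrane protein of the translocon named for its link to ER stress, had the smallest adjusted p among the members. At its probe set 1386900_at the Ad-GFP arrays were at 8.94 and 8.98 and the Ad-atrogin-1 arrays at 9.93 and 10.04. The log2 fold change of 1.02 (SE 0.12, 95% interval 0.73 to 1.31), 2.03-fold, was the 1 member value of at least 2-fold, with an adjusted p of 0.0558 from limma. This probe set passed under 3 of the other settings, with an adjusted p of 0.0452 with arrays centred on their medians, 0.0447 with the dimmest 40% of probe sets left out and 0.0488 with an intensity trend. At the brighter Serp1 probe set, 1367686_at, signals of 9.76 and 9.95 in Ad-GFP and 10.71 and 10.80 in Ad-atrogin-1 gave a log2 fold change of 0.90 (SE 0.13, adjusted p = 0.0821, limma).

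**Figure D2:**
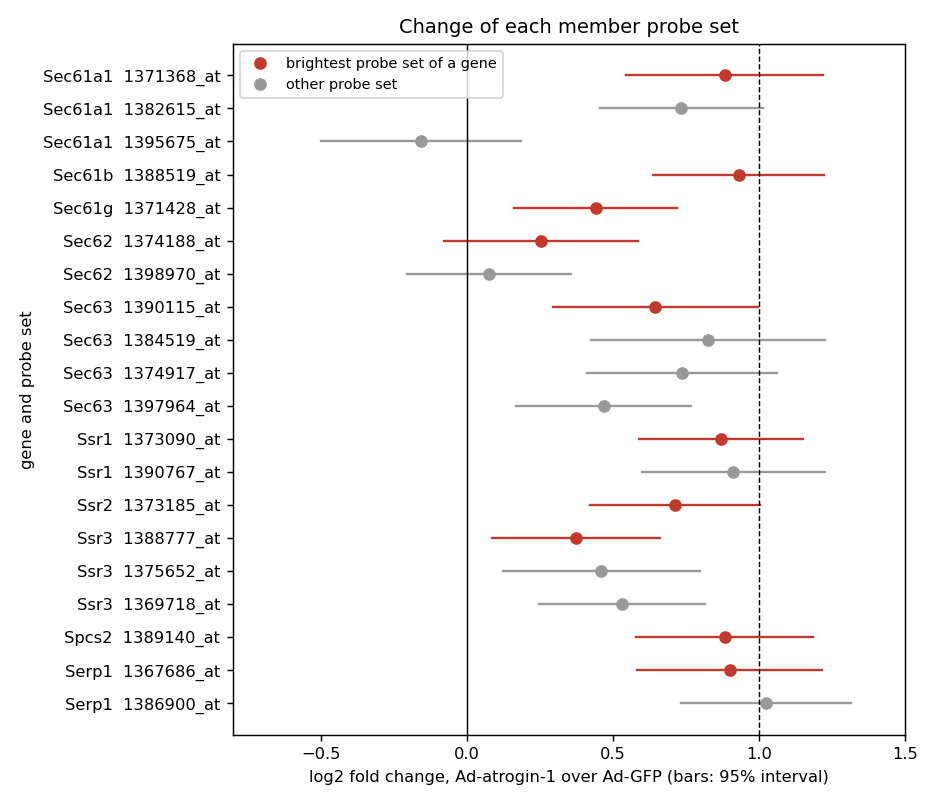
Log2 fold change of each member probe set (horizontal axis; positive where Ad-atrogin-1 was higher) with its 95% interval from limma as a bar, red for the brightest probe set of a gene and grey for the others; the dashed line marks 2-fold. Intervals of 17 of the 20 probe sets lie above 0, and those of Sec62 and of the dim Sec61a1 probe set include it.

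**Figure D3:**
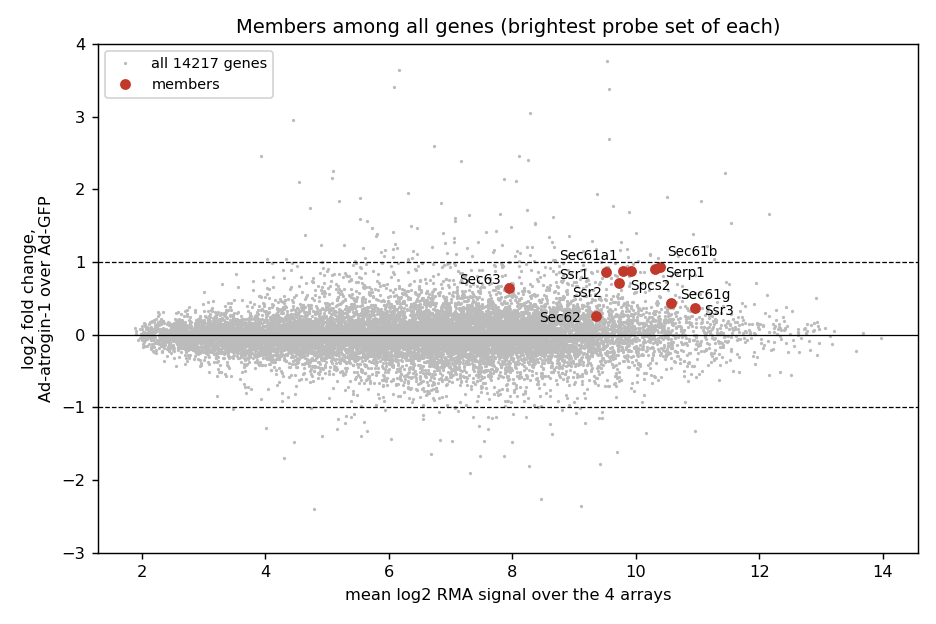
Log2 fold change (vertical axis) against the mean log2 RMA signal over the 4 arrays (horizontal axis) for 14217 genes, each by its brightest probe set, with the 10 members in red and dashed lines at 2-fold. The members lie above 0 and below the upper 2-fold line, on the bright side of the array; Fbxo32, at 8.37, lies outside the vertical range.

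Other genes of protein entry into the ER were taken as 7 lists of 50 genes, all measured, each by its brightest probe set. Of the 50 genes, 4 rose and 0 fell, against 0.248% and 0.0258% of all probe sets called higher and lower. The 4 were all among 6 lumenal partners of the channel. At an unadjusted p under 0.05, 20 of the 50 were higher and 0 lower, against 5.6% and 5.61% of all probe sets. Hspa5, the gene of the chaperone BiP that pulls chains through the channel, had log2 signals of 11.19 and 11.44 in Ad-GFP and 13.02 and 12.94 in Ad-atrogin-1, a log2 fold change of 1.67 (adjusted p = 0.0230, limma). Dnajc3, the gene of a J-protein that works with BiP, rose by 2.69 on the log2 scale (adjusted p = 0.00965, limma), Hyou1, which recharges BiP with nucleotide, by 2.46 (adjusted p = 0.0183), and the J-protein gene Dnajb11 by 1.94 (adjusted p = 0.0322). Sil1, also a nucleotide exchange factor of BiP, had 0.29 and the J-protein gene Dnajc1 0.08. With any 1 array left out none of the 4 passed, with adjusted p of 0.324 to 0.552, and their log2 fold changes were then 1.54 to 2.86. They also missed the threshold in the methods' t-test (adjusted p = 0.496 to 0.539).

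None of the other 44 genes passed limma, and their median log2 fold change was 0.20. The 8 further subunits of the channel, TRAP and signal peptidase had a median of 0.50. Of these 8, 6 lay higher with no overlap of the groups, against 18.3% of all probe sets. Ssr4, the TRAP delta subunit gene, had 0.68 (SE 0.14), Spcs1, a signal peptidase subunit gene, 0.18 (0.11), and Sec11c, the gene of a catalytic subunit of signal peptidase, 0.95 (0.19, adjusted p = 0.156, limma). Sec61a2, the gene of a second alpha subunit, had 0.04 and Serp2, a relative of Serp1, -0.10 from signals near the array median. Signal peptide peptidase, encoded by Hm13, clears what the cut leaves behind and had 0.48 (SE 0.12).

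Among 10 genes of the signal recognition particle, its receptor and TRAM proteins, 9 lay higher with no overlap, against 18.3% of all probe sets. The median of the 10 was 0.43. Tram1, which encodes a membrane protein that contacts the chain in the channel, had log2 signals of 10.12 and 10.20 in Ad-GFP and 10.91 and 11.02 in Ad-atrogin-1, with a log2 fold change of 0.81 (adjusted p = 0.0877, limma). Srp14, whose protein helps to pause translation, had 0.22, its partner Srp9 0.89 (adjusted p = 0.0761), Srp72, a scaffold of the particle, 0.74, and Srprb, which anchors the receptor, 0.73 (adjusted p = 0.112). Srp14 and Srp9 form a dimer, and the difference between their log2 fold changes was not tested.

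The lists of other entry routes had smaller medians. The ER membrane complex, an insertase for membrane proteins, had a median of 0.11 over 10 genes, with 0.03 for Emc6 and 0.01 for Emc4, whose signs turned with another scaling and with some arrays left out. The 7 genes of tail-anchored protein insertion had a median of 0.07, with 0.07 for Get4 and 0.05 for Bag6, whose sign turned with an array left out. The 5 genes of the multipass translocon, which takes proteins with many membrane spans, had a median of 0.25, among them Ccdc47 with 0.30 and Tmco1 with 0.25. The 4 membrane and ribosome-binding proteins of the rough ER had 0.22, with 0.40 for Ckap4 and -0.03 for Ktn1, whose sign also turned with an array left out. Srp9, Srp72, Srprb, Sec11c, Sil1, Dnajc1, Sec61a2, Serp2 and Hm13, and Srp19 below, were named after their values had been seen.

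**Figure D4:**
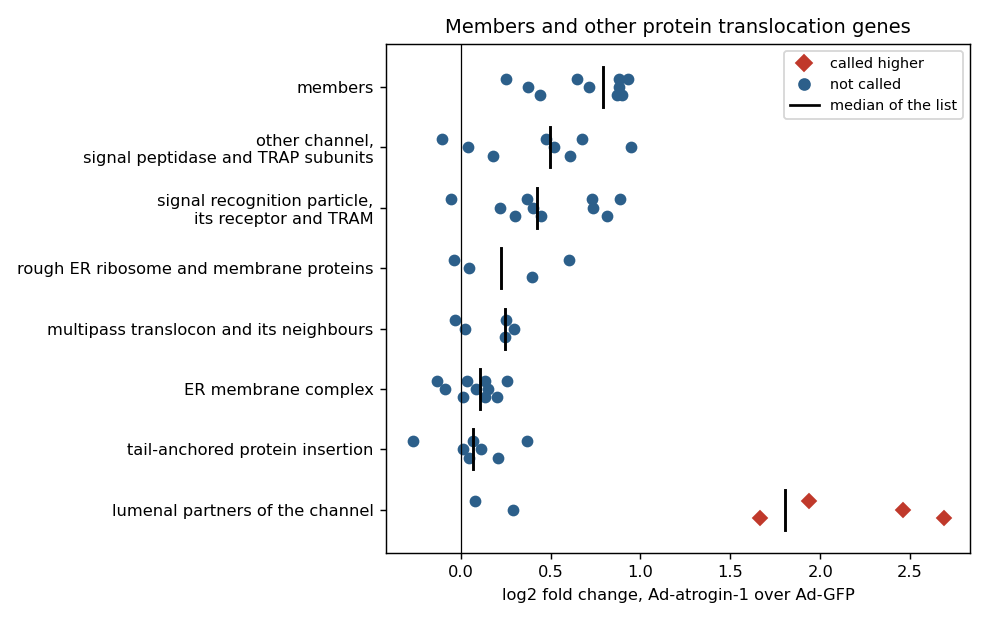
Log2 fold change (horizontal axis; positive where Ad-atrogin-1 was higher) of the 10 members and of 7 lists of other genes of protein entry into the ER (rows), 1 symbol per gene at its brightest probe set, with red diamonds for genes called higher and a black bar for each median. The members, with a median of 0.79, lie below the lumenal partners at 1.80 and above the other 6 lists. Medians of those lists run from 0.50 for the further channel, signal peptidase and TRAP subunits to 0.07 for the tail-anchored insertion genes.

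Markers of the muscle cells had a higher mean with Ad-atrogin-1, though not at every gene. The mean log2 signal of the 11 cardiomyocyte markers was 11.17 to 11.36 on the Ad-GFP arrays and 11.42 to 11.83 on the Ad-atrogin-1 arrays. None of them passed limma. Their median log2 fold change was 0.38, with 8 of 11 above 0. At an unadjusted p under 0.05 there were 3 of the 11, against 5.6% of all probe sets higher and 5.61% lower. With no overlap, 6 lay higher and 1 lay lower, against 18.3% and 22.1% of all probe sets, and 4 overlapped. The myosin light chain gene Myl7 had a log2 fold change of 1.03 (adjusted p = 0.091, limma). Myh6 had 0.82, with overlapping groups, Atp2a2 0.715 and Pln 0.44. Below 0 were Tnnt2 at -0.11, the Z-disc gene Actn2 at -0.17 and Nppa, the gene of atrial natriuretic peptide, at -0.22. Nppa was the lower one, with log2 signals of 13.65 and 13.69 in Ad-GFP and 13.55 and 13.35 in Ad-atrogin-1. Of 37 measured markers of 7 other cell types none passed limma. At an unadjusted p under 0.05, 3 were higher and 2 lower, against 5.6% and 5.61% of all probe sets. The mean over 9 fibroblast markers, which stand for cells that secrete much, was 9.08 to 9.51 in Ad-GFP and 9.26 to 9.50 in Ad-atrogin-1, and the groups overlapped. Means of the endothelial, the macrophage, the erythroid and the Schwann cell lists overlapped too. Those of smooth muscle and pericyte markers (8.54 to 8.64 against 8.72 to 8.78) and of epithelial and mesothelial markers (5.08 to 5.41 against 5.68 to 5.82) did not. Gene by gene both lists were mixed. The median log2 fold change was 0.08 for smooth muscle and pericyte markers, with 3 of 6 above 0. It was -0.09 for epithelial and mesothelial markers, with 2 of 5 above 0. The keratin gene Krt19 was at 3.20 and 5.48 in Ad-GFP and at 7.89 and 8.09 in Ad-atrogin-1 (adjusted p = 0.141, limma), and Krt18 was lower. The part of these cells in the members' differences was not tested.

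Promoter sequences were set beside the values because the members lay higher together, and because the unfolded protein response acts through known short motifs. The RefSeq promoters on GRCr8, from 250 bases before to 50 after each annotated start, were given for 9 of the 10 members, all except Sec61a1. Annotated starts need not be the ones used in these cells. Matches were sought on both strands for the ER stress element ERSE (CCAAT and, 9 bases on, CCACG), for ERSE-II (ATTGG, 1 base, CCACG), for the core of the unfolded protein response element (TGACGTGG), for CCAAT alone, and for the shorter CCACG and ACGTG, which overlap wherever CCACGTG stands. None of the 9 member promoters held ERSE, ERSE-II or TGACGTGG, which 0.0657%, 0.0508% and 0.595% of all 33469 promoters held. CCACG was found in 5 of 9 member promoters, in 26 of 49 promoters of the other listed genes of protein entry into the ER and in 31.6% of all promoters. ACGTG was found in 5 of 9, in 20 of 49 and in 19.3%, and CCAAT in 4 of 9, in 13 of 49 and in 37.5%. The 5 members with CCACG (Sec63, Ssr1, Ssr3, Spcs2 and Serp1) had a median log2 fold change of 0.87 and the 4 without it 0.58, with ranges that overlap, 0.37 to 0.90 and 0.25 to 0.93. For ACGTG the order was the opposite, with 0.64 for the 5 with it and 0.80 for the 4 without, and for CCAAT the medians were 0.66 for the 4 with it and 0.71 for the 5 without. The 5 with CCACG also had the higher GC content, 59% to 70.3% of the promoter's bases, against 40% to 56.7% in the 4 without it. The splits and the part of base composition were not tested. A match describes letters and no site.

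The bases from 250 before to 1 before the start are shown 5′ to 3′ for 4 members, with CCACG and ACGTG, on either strand, in capitals. Ssr1 and Serp1 are shown as genes with the short motifs and a large difference, Sec61b as the gene with the largest log2 fold change at a brightest probe set and none of these motifs, and Sec62 as the gene with the smallest difference and likewise none. The last match of Serp1 runs 1 base past the start, so that 4 of its bases are shown.
Ssr1, chr17:27039043-27039292, plus strand: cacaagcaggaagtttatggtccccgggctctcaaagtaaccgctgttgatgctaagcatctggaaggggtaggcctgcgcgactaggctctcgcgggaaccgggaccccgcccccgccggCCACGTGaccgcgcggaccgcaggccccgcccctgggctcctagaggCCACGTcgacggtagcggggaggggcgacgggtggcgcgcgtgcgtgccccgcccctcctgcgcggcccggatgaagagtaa
Serp1, chr2:144911188-144911437, minus strand: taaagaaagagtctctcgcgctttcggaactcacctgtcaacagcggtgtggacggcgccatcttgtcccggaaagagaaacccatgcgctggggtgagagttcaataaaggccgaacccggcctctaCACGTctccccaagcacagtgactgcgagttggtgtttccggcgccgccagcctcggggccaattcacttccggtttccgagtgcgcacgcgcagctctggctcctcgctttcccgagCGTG
Sec61b, chr5:66568934-66569183, plus strand: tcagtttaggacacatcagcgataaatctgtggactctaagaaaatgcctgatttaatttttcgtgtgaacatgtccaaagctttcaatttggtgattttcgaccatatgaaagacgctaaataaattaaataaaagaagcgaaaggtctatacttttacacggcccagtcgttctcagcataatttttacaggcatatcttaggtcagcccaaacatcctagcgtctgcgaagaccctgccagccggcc
Sec62, chr2:114526706-114526955, minus strand: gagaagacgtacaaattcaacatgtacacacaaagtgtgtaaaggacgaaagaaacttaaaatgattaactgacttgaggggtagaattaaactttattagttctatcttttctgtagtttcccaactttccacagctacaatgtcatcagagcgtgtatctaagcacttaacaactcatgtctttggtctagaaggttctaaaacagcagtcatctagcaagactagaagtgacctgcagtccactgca

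For contrast, stretches of 50 bases are shown from 3 of the 4 lumenal partners that rose, with the ERSE or ERSE-II match in capitals. ERSE was found at Hspa5, 43 to 25 bases before the start, and at Dnajc3, 133 to 115 bases before it. ERSE-II was found at Dnajb11, where it ends on the first base of the transcript. It was also found at 2 places of an annotated promoter of Hyou1, not shown, at 1 of which it overlaps TGACGTGG. A further annotated Hyou1 promoter, also among the 49 counted next, held neither ERSE, ERSE-II nor TGACGTGG. Across the 49 promoters of the other listed genes, which held CCACG in 26 cases and ACGTG in 20, ERSE was in 2, ERSE-II in 2 and TGACGTGG in 3. Those with TGACGTGG were Hyou1 and the genes Ckap4 and Srp19, which were not called (log2 fold changes 0.40 and 0.30).
Hspa5, chr3:38452956-38453005, plus strand: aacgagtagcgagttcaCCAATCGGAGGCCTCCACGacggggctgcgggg
Dnajc3, chr15:102432517-102432566, plus strand: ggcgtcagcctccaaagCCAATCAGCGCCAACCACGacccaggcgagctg
Dnajb11, chr11:91672781-91672830, minus strand: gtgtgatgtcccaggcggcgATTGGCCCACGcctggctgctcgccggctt

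**Figure D5:**
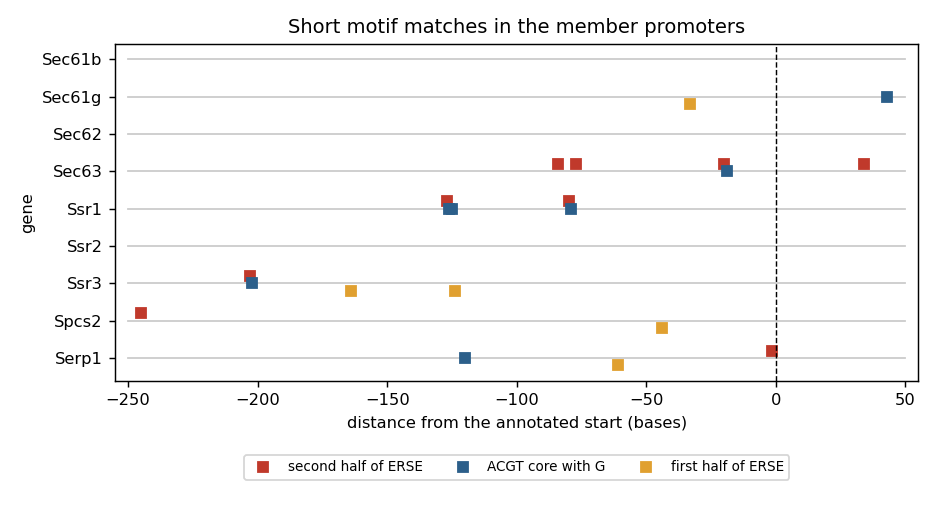
Matches to CCACG (red), ACGTG (blue) and CCAAT (yellow) on either strand in 9 member promoters (rows), by their distance in bases from the annotated start (horizontal axis, dashed line at the start). Sec61b, Sec62 and Ssr2 show no match, and Ssr1 shows CCACG and ACGTG together at 2 places.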

How the data were processed

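Each of 2 Ad-GFP and 2 Ad-atrogin-1 RNA samples was read on 1 Affymetrix rat expression array. The log2 signals were made by the authors, by RMA in GeneSpring GX from the scanned intensities, and were used as deposited. The number of arrays limits the precision. Affymetrix controls, 57 probe sets, were dropped, and no filter on low signal was set. The array's gene table, with symbols updated by Entrez ID through RefSeq, paired 20826 probe sets with 1 gene and 436 with several, none of these a member.

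A linear model per probe set was fitted with limma (version 3.58.1, R 4.3.3) without a block and its two-sided moderated test (2 residual and 3.65 prior degrees of freedom) was adjusted by Benjamini-Hochberg over the 31042 probe sets. Calls needed a 2-fold change and an adjusted p under 0.05, as in the methods. Standard errors and 95% intervals are those of the moderated fit. Where 1 probe set stands for a gene, it is the brightest over the 4 arrays. The equal-variance test of 2 means was run as the methods' t-test, since the methods do not name theirs.

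All member probe sets are given. Of each other list, called genes are named by adjusted p, up to 4, or else the 2 brightest. The members and lists were chosen with earlier results of these data known. Alternatives were another scaling, a filter on signal, another prior, the methods' t-test, 1.5-fold, 1 probe set a gene, the replicate number as a block, and each array left out. The fit was tested on simulated data. Figures were drawn with matplotlib 3.10.9.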

Additional observations from a re-analysis of the deposited data

How the results depend on the processing

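The log2 fold changes of the 20 member probe sets kept their sign under each alternative that tested them, and the median of the 10 genes stayed between 0.69 and 0.83. It was 0.74 after a further quantile normalization and 0.69 with the probe sets of a gene averaged, which moved it by more than the replicate spread of 0.039. With 1 array left out it ranged from 0.73 to 0.83. It moved by more than the replicate spread without replicate 1 of Ad-GFP (0.75) and without replicate 2 of Ad-atrogin-1 (0.73). The member probe sets called higher, and those with an adjusted p under 0.05, numbered 1 (Serp1, 1386900_at) in place of 0 with arrays centred on their medians, with the dimmest 40% of probe sets left out and with an intensity trend, and 0 under the others. The count of members higher at an unadjusted p under 0.05 was an alternative chosen after seeing the data. With all 4 arrays and all 20 probe sets, it was 15 in the methods' t-test, against 4.13% of all probe sets higher. It was 17 under the other such settings, against 5.43% to 5.72%. With the dimmest 40% of probe sets left out it was 16 of 19, against 7.29%. With 1 probe set a gene it was 9 of 10, against 6.61% of genes. Calls over the whole array (85) and among the other translocation genes (4) fell to 0 and 0 in the methods' t-test and with any 1 array left out, in each of the 4 cases, although 3.88% to 4.8% of probe sets were then higher at an unadjusted p under 0.05. With the replicate number as a replicate block 1 probe set was called over the array and 0 of the other translocation genes. The sample names carry the same pair of numbers in both groups, and whether a number marks a shared culture is not stated. Deviations of same-numbered arrays correlated at 0.043 over probe sets, and with 2 pairs this does not settle whether the samples are paired, so the fit without the block was kept. Signs turned for Emc6 (-0.0346) and Emc4 (-0.0166) after quantile normalization, and with 1 array left out, where the ranges were -0.0653 to 0.13 for Emc6, -0.0170 to 0.0415 for Emc4, -0.16 to 0.0900 for Ktn1 and -0.0152 to 0.11 for Bag6. A left-out array leaves 1 residual degree of freedom and a lone array that is assumed to vary like the other group.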
